A study of Mus musculus with 12 samples.

Results

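The 120 genes described here were those with at least 10 raw counts in each of 12 single tendon cells, after the gene families and single genes named next were left out. Of 55418 genes in the count table, 213 reached 10 counts in all 12 cells. The 93 of these that were left out were mitochondrially encoded genes, ribosomal proteins, collagens, initiation and elongation factors, proteasome subunits, heat shock proteins and J proteins, respiratory chain and ATP synthase subunits, glutathione peroxidases, peroxiredoxins, thioredoxins, tissue inhibitors of metalloproteinases, lysyl oxidase, the abundant matrix genes Dcn, Fmod, Bgn, Comp, Clu, Spp1 and Sparc, and Malat1, Actb, Tmsb4x, Gapdh, Fos, Jun and Junb, as far as each reached the limit. The 120 genes were thus chosen by their measured counts, and their presence in every cell, their level and their low-end spread follow in part from that choice, so these values are a description with no test.

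The cells were 6 Tnmd-/- ScxGFP+ cells and 6 WT ScxGFP+ cells from uninjured, untreated Achilles tendons of mice of C57BL/6 background. Tenomodulin (Tnmd) is a membrane glycoprotein of tendon cells and the gene inactivated in all cells of the Tnmd-/- mice. Scleraxis (Scx) is the transcription factor that marks the tendon lineage, and every cell of both genotypes carried a GFP reporter of Scx, by whose fluorescence it was picked with a micromanipulator after 8 hours in collagenase. Tnmd lies on the X chromosome, and by the study's methods the WT mice of the study included heterozygous females besides homozygous females and hemizygous males. The labels tie no cell to an animal, so each genotype counted as 1 sample of 6 cells, no test between genotypes was possible, and the 95% intervals given on sums of counts cover counting error only, since the amplified reads carried no molecular identifiers.

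Tnmd had 0 to 5 counts in each Tnmd-/- cell and 10178 counts in WT cell 14, but 0 to 7 counts in the other 5 WT cells, so that it told 1 WT cell from the mutants and no more. Scx had 174, 544 and 1355 counts in 3 WT cells, 1 count in another and 0 in the remaining 2, against 0 in 5 Tnmd-/- cells and 3 counts in Tnmd-/- cell 7. Dcn, Comp and Col1a2, 3 of 10 tendon fibroblast markers, had at least 10 counts in all 12 cells. Col1a2 did so narrowly, with 10 counts in Tnmd-/- cell 10 and 11 in WT cell 2. The others did not: Col1a1 was at 0 in Tnmd-/- cells 3, 9, 10 and 20 and WT cell 10. Lum had 0 to 18 counts outside WT cells 4 and 5. Mkx had 0 to 2 counts outside Tnmd-/- cell 9 and WT cells 4 and 10. The list thus carried the tendon fibroblast label only in part. Of markers of other cells, all 5 of red blood cells were at 0 in every cell, and the summed level of the 6 immune markers did not exceed 0.871 CPM in any cell. The summed level of 5 skeletal muscle markers reached 6.72 CPM. Single cells had more of others: 5 endothelial markers summed to 30.1 CPM in Tnmd-/- cell 1 (Pecam1, 160 counts), 4 glial markers to 173 CPM in WT cell 10 and 37.7 CPM in Tnmd-/- cell 10 (S100b, 2352 and 375 counts), and 5 mural markers to 641 CPM in WT cell 5 and at most 118 CPM in the Tnmd-/- cells (Cspg4, 7703 counts in WT cell 5). Rgs5, Kcnj8 and Abcc9 of the mural, Sox10 of the glial and Cdh5, Tie1 and Emcn of the endothelial list were at 0 in every cell, and the part of these markers in the results was not tested. The cells had 892713 to 10333351 counts if Tnmd-/- and 4516036 to 13613080 if WT. Tnmd-/- cell 3 stood apart because mitochondrially encoded genes took 51.8% of its counts, against 1.75% to 7.30% in the other 11 cells, and Tnmd-/- cell 7 had the fewest counts. Shares, spreads and ratios that rest on these 2 cells are also given without them.

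Full-length amplification of the RNA of 1 cell (Smart-Seq2) loses transcripts at random, so a gene read in every cell is usually one of which each cell holds many copies. Such broadly counted genes are, as a rule, of 2 kinds: genes every cell needs, for RNA processing, protein breakdown, the cytoskeleton and vesicle traffic, and abundant products of the tissue in question, in tendon the matrix and lubricating proteins. Enzymatic release from a stiff tissue is also known to induce stress and early response genes.

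Members of both kinds were found. Sorted by their known role after they had been found, the 120 genes comprised 18 RNA-binding proteins and splicing factors, 11 secreted and matrix proteins, 10 actin and microtubule proteins, 10 surface and membrane proteins, 10 growth arrest genes and inducible regulators, 9 genes of iron, redox and proteotoxic stress, 9 of metabolism and mitochondria, 8 of nucleolus and translation, 7 of ubiquitin, autophagy and lysosome, 7 of endoplasmic reticulum, Golgi and folding, 6 of chromatin and nuclear transport, 5 annexins and S100 proteins, 4 signalling proteins and 6 non-coding or poorly characterised loci. By the GENCODE annotation 116 were protein-coding, and they lay on 20 chromosomes. They made up 1.23% of the 9768 genes whose counts summed to 20 or more. Their median summed exon length of 3863 bases was close to the 4133 bases of those 9768 genes.

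The 20 functional lists were chosen with earlier results of these data known, so the shares below describe the lists and are no test. Among them, nucleolus and translation-associated genes had the largest share of members. Of the 21 genes of that list with at least 20 counts, 8 (38.1%) were counted in all cells: the highest per length were Npm1, Tpt1 and Rack1. The share was 4 of 17 (23.5%) for the listed annexins, S100 proteins and galectins, 11 of 48 (22.9%) for the listed RNA-binding proteins and splicing factors, and 2 of 42 for the secretory pathway. The lists are not complete: the member Anxa8 is not in the annexin list, and the RNA-binding class above holds 18 members. No gene was a member among 20 of glycolysis and central metabolism, 13 of intermediate filaments and tubulins, and 11 of the tendon lineage. The glycolytic Aldoa missed the limit by 1 count in 1 cell. The remaining lists, from 4.55% for peptidyl-prolyl isomerases and cytosolic chaperones to 22.2% for calmodulin and endoplasmic reticulum chaperones, lay between.

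The limit of 10 counts was met narrowly by many genes. Of the 120, 49 had a lowest count under 20 and 18 a lowest count of 100 or more. Exactly 10 counts were the lowest value of Sf3b1, a core splicing factor, and Tspo, a translocator protein of the outer mitochondrial membrane, both in Tnmd-/- cell 7, and of Ppp1r15a, Tnfrsf12a and Gm10076 in Tnmd-/- cell 3. In the same genes the median over cells was 182 counts for Gm10076 and 2782 to 7792 counts for the other 4. Just outside, 12 genes had a lowest count of 9, of which Lgals3, Msn, Crip2, Aldoa and Myoc had the most counts. Their lowest cell was a WT cell in each case, and their medians over cells, 2808 to 6141 counts, were within the range of the 4 genes just inside. The lowest count of a member fell in Tnmd-/- cell 3 or 7 in 90 of 120 genes.

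The 120 genes took a stable share of the counts in 10 of the 12 cells. In WT cells the share was 18.1% at the lowest, 22.6% in the median and 26.3% at the highest. In Tnmd-/- cells it was 5.08%, 20.3% and 26.2%. The genotypes overlapped: 4 Tnmd-/- cells lay between 18.1% and 26.2%, and cells 7 (6.18%) and 3 (5.08%) lay far below every WT cell. When mitochondrially encoded genes were taken out of the total, the share in Tnmd-/- cell 3 was 10.6% and that in cell 7 was 6.66%. Over the summed counts of a genotype, Tnmd-/- cells gave 21.8% (21.81% to 21.84%) and WT cells 22.5% (22.52% to 22.54%). The interval of the share of a single cell, which covers the counting of reads only, was at most 0.05 percentage points to either side. That was far less than the distance between cells.

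**Figure D1:**
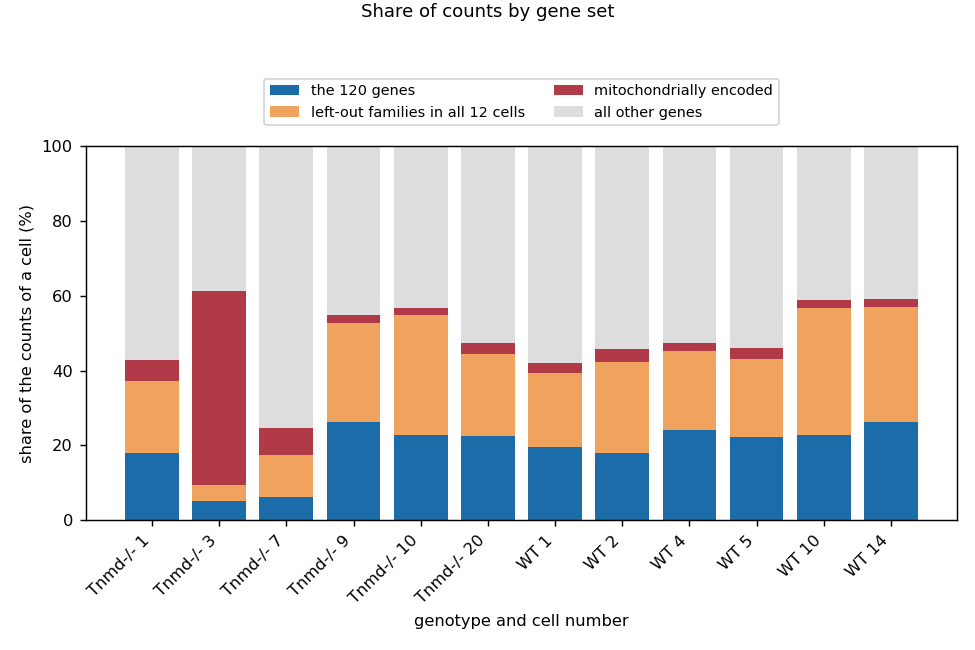
Share of the counts of each cell, in percent, taken by the 120 genes, by the left-out families that were counted in all cells, by mitochondrially encoded genes and by all other genes, with 1 bar for each of the 6 Tnmd-/- and 6 WT cells. The 120 genes take 18.1% to 26.3% in 10 cells and 5.08% and 6.18% in Tnmd-/- cells 3 and 7, and mitochondrially encoded genes take 51.8% in Tnmd-/- cell 3.

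Levels per length ran over 3 orders of magnitude. As the geometric mean over 12 cells of counts scaled to 1000000 in each cell (CPM) and divided by exon length in kb (CPM per kb), the median of the 120 genes was 101, the lowest 2.44 for Serbp1 and the highest 4519 for Cst3. Without division by length, Prg4 was highest at 10358 CPM, and Fth1 (5993 CPM) also exceeded Cst3 (5721 CPM). The 8 highest per kb belonged to a few functions. Cst3, the secreted inhibitor of cysteine proteases cystatin C, was followed by Ftl1 (3436), the ferritin light chain, Prg4 (2420), lubricin, Chad (2221), the matrix protein chondroadherin, Fth1 (1727), the ferritin heavy chain, Ubb (1521), a polyubiquitin gene, Hmox1 (1420), the enzyme that opens heme, and S100a10 (1230), the partner of annexin A2. Both ferritin chains, which store iron, and the enzyme that frees iron from heme were thus among the 8.

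Cst3 was read at 209, 4169 and 16572 CPM (lowest, median and highest cell) in the Tnmd-/- and at 8388, 9967 and 72933 CPM in the WT cells. WT cell 14 held 28.4% of all Cst3 counts, and the genotypes overlapped. The log2 ratio of pooled Tnmd-/- over WT CPM was -0.59, and 0.03 without that cell. Prg4 was read at 612, 17779 and 33447 CPM in the Tnmd-/- and at 7514, 17266 and 19540 CPM in the WT cells, so that outside Tnmd-/- cells 3 and 7 it stayed within a narrow range. Chad, which is also a marker of cartilage, was read at 209, 2472 and 14424 CPM in the Tnmd-/- and 2960, 5549 and 21704 CPM in the WT cells. Of the other 4 cartilage markers, Col2a1 and Matn3 were at 0 in every cell. Acan had 8768 and 10741 counts in Tnmd-/- cells 9 and 10, 1130 in WT cell 2 and 0 to 354 in the others, and Sox9 had 4980 counts in Tnmd-/- cell 9, 1517 in WT cell 1 and 0 to 425 in the others.

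The spread over cells was wide for a group of genes counted everywhere. The SD over 12 cells of log2(CPM + 1) had a median of 2.27 over the 120 genes, and ran from 0.77 to 4.52. In 90 genes the highest cell was at least 100 times the lowest cell in CPM, with a median ratio of 209, and in 8 genes it was less than 30 times. Without Tnmd-/- cells 3 and 7 the median SD was 1.77 and the median ratio 60.5. The 93 genes of the left-out families that were counted in all 12 cells had a median SD of 1.93, and the 110 other genes that reached 10 counts in 11 cells had 2.76. Both the limit of 10 counts and the level enter these SDs, so the order is a description of how the groups were drawn.

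**Figure D2:**
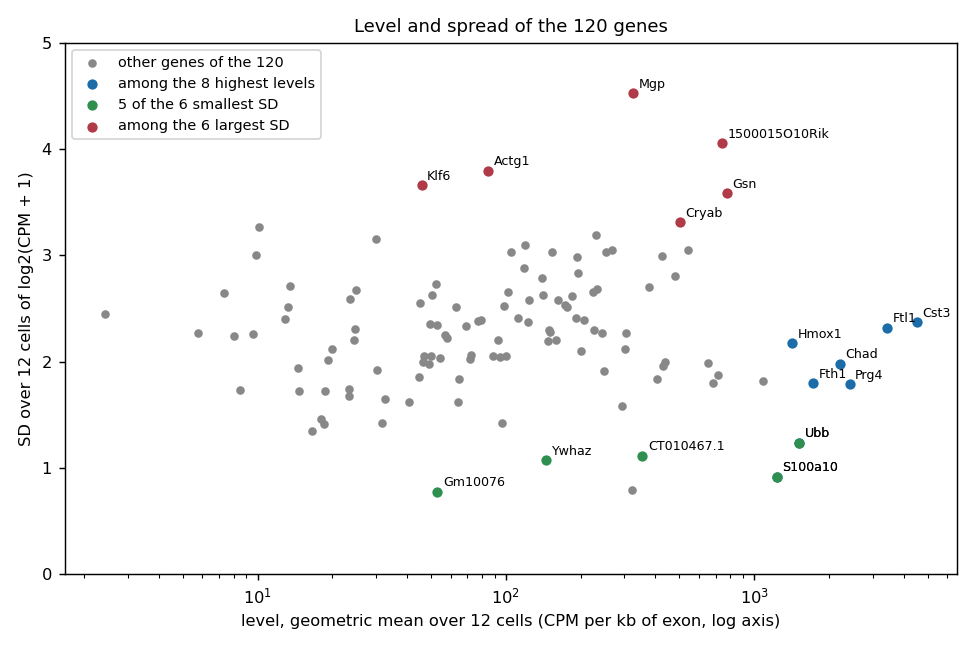
Level of each of the 120 genes (geometric mean over 12 cells, CPM per kb of exon, log axis) against its SD over 12 cells of log2(CPM + 1), with 1 point per gene. Of the 6 genes of smallest SD (0.77 to 1.24), 5 are named, as are the 6 of largest SD (3.31 to 4.52) and the 8 of highest level, among which Ubb and S100a10 also belong to the 6 of smallest SD.

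An annexin partner, a ubiquitin gene and a 14-3-3 protein were among the most even coding genes. S100a10 was read at 465, 1445 and 2885 CPM (lowest, median, highest) in the Tnmd-/- and at 960, 2058 and 2909 CPM in the WT cells, a range of 6.26-fold over all 12 cells, the narrowest of the 120 genes. Ubb, at 298, 3059 and 6082 CPM in the Tnmd-/- and 2286, 3466 and 4470 CPM in the WT cells, had an SD of 1.24 over 12 cells and, at 0.44, the smallest of the 120 genes over the 10 cells other than Tnmd-/- 3 and 7. Ubb encodes repeats of ubiquitin, which other genes also encode, so its count of uniquely mapped reads is uncertain.

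Ywhaz, an adaptor protein of the 14-3-3 family, was read at 156, 546 and 936 CPM in the Tnmd-/- and 160, 858 and 1779 CPM in the WT cells. Of the 6 genes of smallest SD, 2 were non-coding. CT010467.1, annotated as rRNA, was read at 434, 864 and 5433 CPM in the Tnmd-/- and 368, 810 and 1482 CPM in the WT cells. Of its exon bases 73.9% overlap Gm42418 on the other strand, so the reads of these 2 loci cannot be told apart without the strand. Gm10076, annotated as lincRNA, had the smallest SD of all, 0.77, and the level was low, at 6.65 to 50.4 CPM in the Tnmd-/- and 13.3 to 27.5 CPM in the WT cells. Short loci of this kind can share reads with near-identical copies of coding genes, and its value is uncertain for that reason.

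The least even genes were secreted and matrix, actin and inducible genes and a small chaperone, each near absent in some cells and well read in others. Mgp, the inhibitor of matrix calcification, had an SD of 4.52 and was read at 4.33 CPM in Tnmd-/- cell 1, 5.82 in cell 10 and 15.1 in cell 20, but at 23131 CPM in Tnmd-/- cell 9. In WT cells it was read at 34.1, 5856 and 15254 CPM. Its highest cell was 5341 times its lowest, the widest range of the 120 genes. The secreted peptide precursor 1500015O10Rik was read at 8.85, 946 and 13539 CPM in the Tnmd-/- and 10.7, 1680 and 28218 CPM in the WT cells, and WT cell 10 held 55.0% of its counts. For Mgp the Tnmd-/- median was 51.4 CPM, since 5 of the 6 cells lay at 242 CPM or below, while 5 of the 6 WT cells lay at 597 CPM or above. The genotypes overlapped in both genes. The log2 ratio of pooled CPM rested on 1 cell in both: it was -0.48 for Mgp and -8.79 without Tnmd-/- cell 9, and -0.08 for 1500015O10Rik and 2.68 without WT cell 10.

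Among actin genes, Gsn, the actin-severing protein gelsolin, was read at 12.6, 4779 and 20181 CPM in the Tnmd-/- and at 1813, 8529 and 25353 CPM in the WT cells. Its 3 low cells were Tnmd-/- cells 20, 3 and 7. Actg1, cytoplasmic gamma-actin, was read at 8.64, 236 and 2467 CPM in the Tnmd-/- and at 2.88, 1273 and 5593 CPM in the WT cells, where WT cells 2 and 14 were low. Klf6, an inducible zinc finger transcription factor, was read at 3.56, 815 and 4239 CPM in the Tnmd-/- and 5.76, 795 and 1573 CPM in the WT cells. Cryab, the small chaperone alpha B-crystallin, was read at 14.4, 407 and 2529 CPM in the Tnmd-/- and 93.1, 6013 and 14782 CPM in the WT cells.

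**Figure D3:**
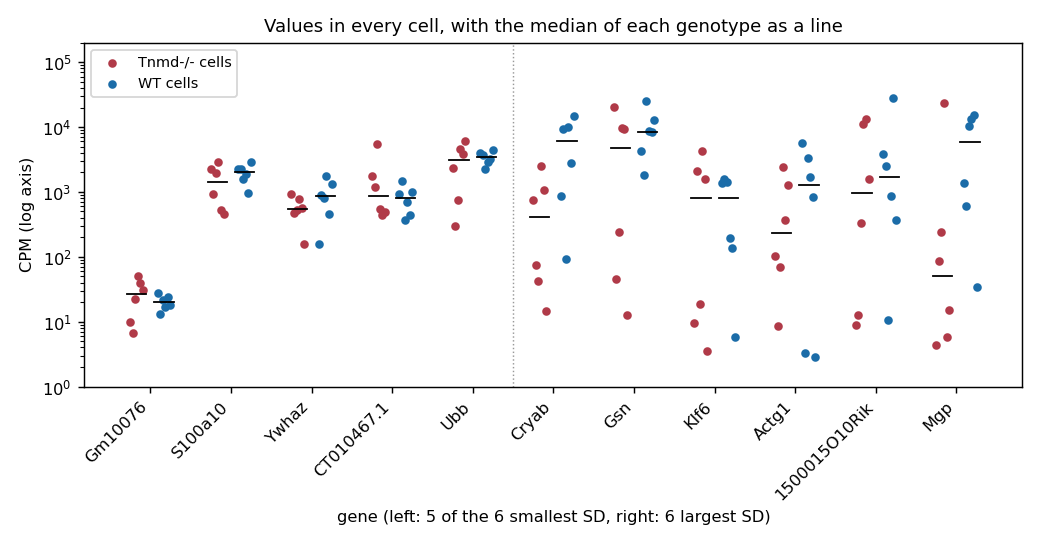
CPM (log axis) in each of the 6 Tnmd-/- and 6 WT cells for 5 of the 6 genes of smallest SD and the 6 of largest SD, with 1 point per cell and a line at the median of each genotype. The even genes keep all cells within 6.26-fold (S100a10) to 20.4-fold (Ubb), and the uneven ones span 1028-fold (Cryab) to 5341-fold (Mgp).

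To see how often a gene nearly vanished in single cells, the values under 5% of the gene's own median over 12 cells were counted, a rule set after the values were seen. Such low values numbered 148 and touched 93 of the 120 genes. Tnmd-/- cell 3 held 49 of them and Tnmd-/- cell 7 held 38. In the other 10 cells 50 genes had at least 1, most often in WT cell 14 (19 genes) and WT cell 2 (13 genes), while each of the other 8 cells had 2 to 6. WT cells 14 and 2 were the cells with the fewest and the second fewest counts of their genotype. Examples in WT cell 14 were Procr, the protein C receptor, at 6.64 CPM against 1018 to 6692 CPM in the other WT cells, and Nupr1, a stress-induced nuclear protein chosen after its values were seen, at 4.43 CPM. In WT cell 2, B2m, the light chain of MHC class I, was at 4.35 CPM and Anxa5 at 5.60 CPM. A raw count of 10 was thus passed at very different relative levels. The paper's methods also describe a correction for degradation, which the raw counts used here lack. The text and labels used here give no degradation level per cell. Neither its part in these low values nor that of depth was tested.

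Members deviated together mainly in Tnmd-/- cells 3 and 7. The median deviation of the 120 genes from their own mean over 12 cells, on the log2(CPM + 1) scale, was -2.90 in cell 3 and -2.30 in cell 7, and 0.21 to 1.13 in the other 10 cells. Over the 7140 pairs of members the median Pearson r over 12 cells was 0.21, and 23.2% of pairs exceeded 0.5. Over the 10 other cells the median r was -0.00 and 11.2% exceeded 0.5. Cells share depth and the total by which counts are divided, and these values are a description. The rank correlation of 2 cells over the members had a median of 0.39 for the 30 pairs of the same genotype and 0.42 for the 36 pairs of different genotype.

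The deviation in these 2 cells was not the same for all roles. In Tnmd-/- cell 3 the median deviation was -5.05 for the genes of iron, redox and proteotoxic stress, -4.54 for nucleolus and translation and -4.30 for secreted and matrix proteins, but -1.30 for RNA-binding proteins and splicing factors and -0.20 for signalling proteins. In Tnmd-/- cell 7 it was -3.77 for annexins and S100 proteins and -3.72 for nucleolus and translation, and -0.33 for RNA-binding proteins. The median of the 6 non-coding and poorly characterised loci was above 0 in both, at 1.30 and 2.26. In the other 10 cells the median of secreted and matrix proteins was highest in WT cell 10 (2.43) and lowest in Tnmd-/- cell 1 (-0.69).

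Chosen after their values were seen, 9 of the 120 genes lay above their median over the other 10 cells in both Tnmd-/- cells 3 and 7. They included Gm10800, a predicted gene, at 3892 and 2433 CPM against 5.01 to 563 CPM in the other 10 cells, Rn7sk, the 7SK RNA that holds back transcription elongation, at 906 and 251 CPM, CT010467.1 at 1188 and 5433 CPM, and the processed pseudogene Gm13456 at 118 and 234 CPM. Hnrnpu, an hnRNP of the nuclear matrix, was read at 480 and 589 CPM. The remaining 4 were Sat1, Serbp1, Rock2 and Slc38a1. Of single cells, Tnmd-/- cell 7 held the highest value of Cdkn1a, the cell cycle inhibitor p21, at 9925 CPM, and of Nupr1 at 3477 CPM. Mitochondrially encoded genes took 51.8% and 7.30% of the counts in cells 3 and 7, and their part in these values was not tested.

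**Figure D4:**
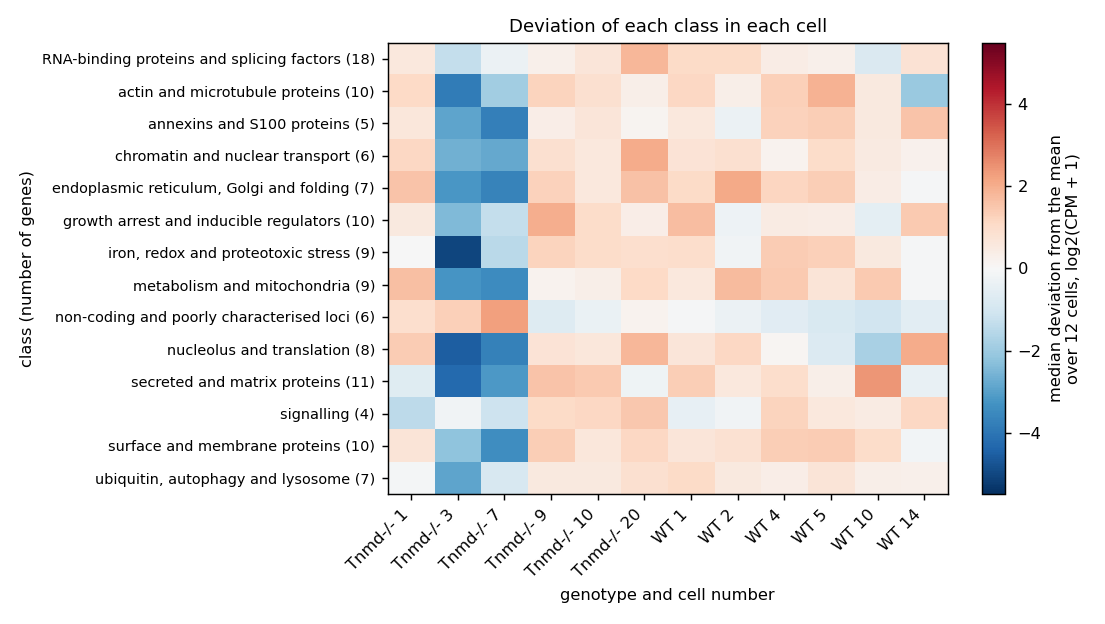
Median deviation of the genes of each of 14 classes from their own mean over 12 cells, on the log2(CPM + 1) scale, in each Tnmd-/- and WT cell, with the number of genes in brackets. Tnmd-/- cells 3 and 7 are low in most classes, down to -5.05 for iron, redox and proteotoxic stress in cell 3, while the non-coding and poorly characterised loci are high there (1.30 and 2.26).

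The sequence before the transcription start was examined as a feature the counts did not use. The RefSeq tables (GRCm38.p6) held a window from 250 bases before to 50 bases after a start for 94 of the 120 genes, with 122 windows. These windows were rich in CpG, as those of most expressed genes: the median ratio of observed to expected CpG was 0.81 for the members and 0.77 for 6727 genes that had both a window and a sum of 20 counts or more. A GC box (GGGCGG) was present in 72.3% and 69.2% of genes. TATAAA, on either strand anywhere in the window, was in 19.1% of members and in 9.08% of the 6727 genes. It is described further because of that difference, so it was chosen after the values of all patterns were seen.

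Restricted to the gene strand and to starts 45 to 20 bases before the transcription start, where a TATA box lies, TATA was found in 15 of 94 members (16%), in 4.55% of the 6727 genes, and in 12.4% of 378 genes among the 500 with the most counts. TATAAA in that place was found in 8 members (8.51%), in 1.55% of the 6727 genes and in 4.76% of the 378. Those 8 were Anxa1, Btg1, Chad, Ddx5, H3f3b, Ppia, Sgk1 and Sod1. Of 63 left-out genes counted in all cells, TATA was found in 12.7% and TATAAA in 1.59%, the latter close to the share in the 6727 genes. These windows belong to 1 of several starts in Ddx5 and Sgk1, and no value here shows which start was used.

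The 100 bases before the start are shown for 4 of these genes, of unlike role, and for Cst3. Cst3 was the gene of highest level per kb of exon and has no TATAAA there. All are read 5′ to 3′ on the gene strand in GRCm38.p6, end 1 base before the start, and have TATAAA in capitals. Chad lies at chr11:94564947-94565046 on the plus strand, Ddx5 at chr11:106788495-106788594, H3f3b at chr11:116024505-116024604, Anxa1 at chr19:20390672-20390771 and Cst3 at chr2:148875513-148875612, all 4 on the minus strand.
Chad: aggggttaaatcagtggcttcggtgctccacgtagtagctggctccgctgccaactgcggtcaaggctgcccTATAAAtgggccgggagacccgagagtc
Ddx5: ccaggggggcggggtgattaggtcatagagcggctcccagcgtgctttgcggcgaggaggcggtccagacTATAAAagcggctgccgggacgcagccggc
H3f3b: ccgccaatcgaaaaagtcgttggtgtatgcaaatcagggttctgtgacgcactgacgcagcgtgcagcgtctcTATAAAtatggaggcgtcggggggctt
Anxa1: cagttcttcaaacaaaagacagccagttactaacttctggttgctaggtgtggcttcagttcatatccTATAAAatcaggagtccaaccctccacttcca
Cst3: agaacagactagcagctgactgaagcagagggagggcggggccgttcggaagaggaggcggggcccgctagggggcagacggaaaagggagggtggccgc
The capitals start 28 bases before the transcription start in Chad, 30 in Ddx5, 27 in H3f3b and 32 in Anxa1. Levels of these genes ranged from 2221 CPM per kb for Chad, over 431 for Anxa1, a calcium-dependent membrane-binding protein, and 293 for Ddx5, an RNA helicase, to 139 for H3f3b, the histone variant H3.3. Their SDs of 1.98, 1.95, 1.58 and 2.79 lay on both sides of the median of 2.27.

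The other patterns reported, also read on both strands, differed less between members and the 6727 genes. CCAAT was in 40.4% of members and 42.3% of the 6727 genes, the cyclic AMP response half-site TGACG in 43.6% and 37.1%, the E-box CACGTG in 16% and 12.7%, and the AP-1 letters TGANTCA in 7.45% and 6.30%. Longer patterns were also looked at and are not reported. A match describes letters and is not a site.

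Over summed counts, 59 of the 120 genes had a higher and 61 a lower CPM in the Tnmd-/- cells, and the median log2 ratio of Tnmd-/- over WT was -0.02. This split depended on the weights: with cells weighted equally 49 genes were higher (median -0.28), and as differences of mean log2(CPM + 1), where Tnmd-/- cells 3 and 7 count as much as any other, 35 were higher (median -0.53). At least 2-fold higher in the Tnmd-/- cells were 17 genes (14.2%), against 39.7% of those 9768 genes, and at least 2-fold lower were 12 (10%), against 38.3%. A gene that must have counts in every cell cannot be at 0 in 1 genotype, as genes of the background can. The shares are therefore not alike, and nothing is read from the distance between them. Of the 93 left-out genes, 5 were at least 2-fold higher and 6 lower. In no member were the CPM ranges of the 2 genotypes apart, as in 0.041% of all 9768 genes. With only the 6 cells of most counts the median log2 ratio was 0.30, with only the 6 of fewest counts, which include Tnmd-/- cells 3 and 7, it was -0.71, and 53 of 120 genes kept their sign in both. Among the 29 genes past 2-fold, all 29 had the sign of the pooled ratio in the 6 cells of most counts, and 21 in the 6 of fewest. The cells of most counts hold most of the summed counts behind that ratio, so their agreement carries little information.

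The 5 highest ratios were those of Npm1, Gm10800, Brd2, Hnrnpu and Nfkbia. Npm1, the nucleolar chaperone nucleophosmin, was read at 40.5, 3457 and 5374 CPM in the Tnmd-/- and at 241, 655 and 1336 CPM in the WT cells. Its log2 ratio of pooled CPM was 2.42 (2.41 to 2.44). In 4 Tnmd-/- cells it was above every WT cell, and in cells 3 and 7 below every WT cell, so that the groups overlapped. Hnrnpu was read at 376, 603 and 1000 CPM in the Tnmd-/- and 31.6, 150 and 519 CPM in the WT cells, with a log2 ratio of 2.10 (2.07 to 2.14). Only WT cell 14 reached into the range of the Tnmd-/- cells, and leaving out any 1 cell left the ratio at 1.78 to 2.42. Brd2, a bromodomain protein that binds acetylated histones, was read at 56.0, 289 and 5327 CPM and at 6.07, 110 and 795 CPM, with a log2 ratio of 2.13, or 3.12 without WT cell 1 and 1.66 without Tnmd-/- cells 3 and 7. Gm10800 had a log2 ratio of 2.26 (2.21 to 2.30), or 1.27 without Tnmd-/- cells 3 and 7, 1.62 without Tnmd-/- cell 3 and 3.21 without WT cell 14.

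Nfkbia, the inhibitor that holds NF-kB in the cytoplasm, completed the 5 highest, but rested on 1 cell. It was read at 33.6, 361 and 5269 CPM in the Tnmd-/- and 7.75, 472 and 1619 CPM in the WT cells. Tnmd-/- cell 9 held 58.6% of all its counts, and the log2 ratio of 1.78 was -0.41 without that cell. Klf6, with a log2 ratio of 1.36, was at 0.18 without the same cell, and Calm2, calmodulin, with 1.25, at 0.50. Serpine2, a serine protease inhibitor chosen after its values were seen, had a log2 ratio of 1.67, or 1.07 without Tnmd-/- cell 9 and 2.58 without WT cell 10, from 21325 and 16786 CPM in Tnmd-/- cells 9 and 10, against 1139 to 8720 CPM in the WT cells and 22.6 to 2383 CPM in the other Tnmd-/- cells.

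The lowest ratios belonged to a chaperone, a mitochondrial protein, an annexin, a ubiquitin ligase and a surface receptor. Cryab had a log2 ratio of -2.13 (-2.14 to -2.11), and of -3.07 without Tnmd-/- cell 9. Its exons overlap Hspb2 on the other strand over 17% of their bases. WT cells 4 and 1, at 93.1 and 876 CPM, lay within the range of the Tnmd-/- cells. Tspo was read at 11.2, 125 and 749 CPM in the Tnmd-/- and 33.7, 716 and 1718 CPM in the WT cells, with a log2 ratio of -1.87 that was 0.21 in the 6 cells of fewest counts. Anxa8 was read at 87.1, 982 and 1877 CPM in the Tnmd-/- and 714, 3909 and 4353 CPM in the WT cells. In all but WT cell 2 the WT values were above those of every Tnmd-/- cell, and the log2 ratio of -1.46 stayed between -1.72 and -1.23 when any 1 cell was left out.

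Ubr4, an E3 ubiquitin ligase, had a log2 ratio of -1.34, which was -0.68 without WT cell 2, whose value was 3637 CPM. Procr had -1.29, which ranged from -3.06 without Tnmd-/- cell 20 to -0.68 without WT cell 5. It was read at 45.9, 316 and 4942 CPM in the Tnmd-/- and 6.64, 2142 and 6692 CPM in the WT cells, with the lowest value of all in a WT cell.

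**Figure D5:**
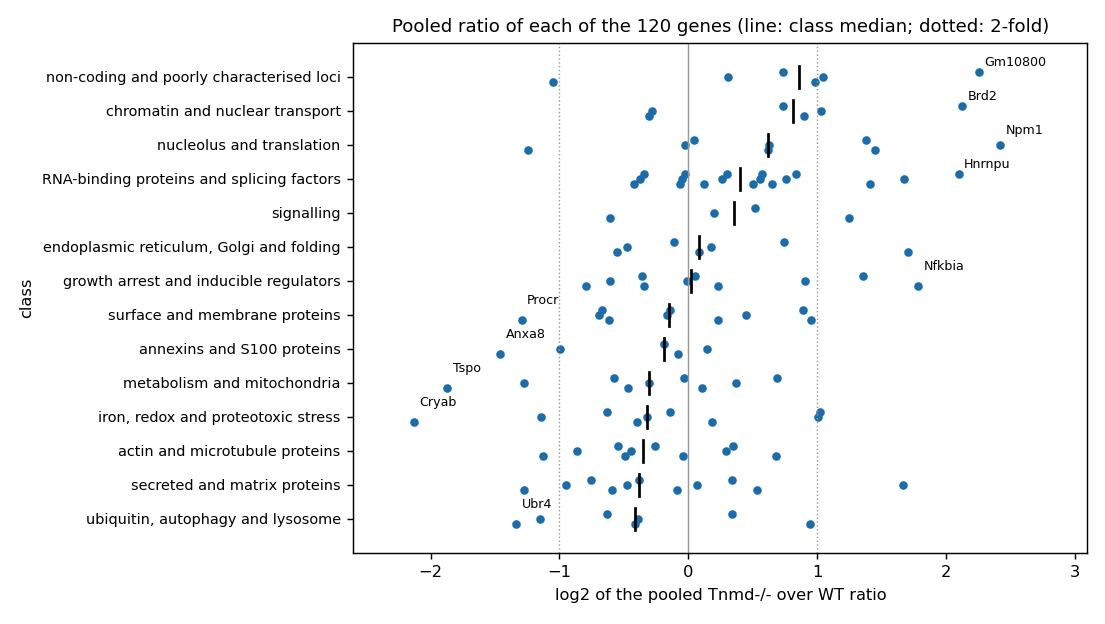
Log2 of the pooled Tnmd-/- over WT ratio of each of the 120 genes, with 1 point per gene in 14 classes, a line at the class median and dotted lines at 2-fold. Of the 120 genes 17 lie at or right of the right dotted line and 12 at or left of the left one, and the 5 highest (Npm1 to Nfkbia) and 5 lowest (Cryab to Procr) are named.

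By class, the secreted and matrix proteins were the largest share of the members' counts, 7.73% of all counts in the Tnmd-/- and 7.77% of those in the WT cells. Their median log2 ratio was -0.38 over 11 genes, of which Serpine2 was at least 2-fold higher and Fn1, fibronectin, also chosen after its values were seen, at least 2-fold lower. WT cell 10 held 51.0% of all Fn1 counts, at 22018 CPM. The log2 ratio of Fn1 was -1.27, but -0.19 without that cell and -2.24 without Tnmd-/- cell 9. Igfbp6, a binding protein of insulin-like growth factors, was read at 2.33, 208 and 2238 CPM in the Tnmd-/- and 203, 2030 and 3304 CPM in the WT cells.

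Genes of iron, redox and proteotoxic stress took 3.33% and 4.57% of the counts, the second largest share. Ftl1 was read at 110, 7218 and 21817 CPM in the Tnmd-/- and 2960, 7874 and 22807 CPM in the WT cells, and 34.6% of its exon bases overlap Gm10252 on the other strand. Fth1 was read at 232, 9280 and 14090 CPM and at 2169, 5849 and 29752 CPM. Hmox1 was read at 48.5, 2165 and 8106 CPM and at 1578, 3800 and 15197 CPM. All 3 overlapped between the genotypes and had log2 ratios within 2-fold (-0.14, -0.32 and -0.63). These also rested on single cells: Ftl1 was 0.38 without WT cell 4, Fth1 0.29 without WT cell 5, and Hmox1 0.01 without WT cell 4 and -1.37 without Tnmd-/- cell 10. Sqstm1, an autophagy receptor that also takes part in the antioxidant response, was read at 71.1, 2089 and 4604 CPM in the Tnmd-/- and 2742, 4472 and 10191 CPM in the WT cells. Its log2 ratio of -1.15 was -0.80 without WT cell 4. Ppp1r15a, which restores translation after stress, was at the limit of the rule with 10 counts in Tnmd-/- cell 3 and had a log2 ratio of 1.02, or 0.74 without Tnmd-/- cell 9. Sod1, the cytosolic superoxide dismutase, had 0.19.

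The 10 growth arrest genes and inducible regulators, read in every cell by the rule of the group, had a median level of 70.6 CPM per kb. Of 49 listed inducible transcription factors and early response genes with at least 20 counts, 6 were members. Cdkn1a, at 684 CPM per kb, was read at 105, 3692 and 9925 CPM in the Tnmd-/- and 1014, 2183 and 8900 CPM in the WT cells, with a log2 ratio of 0.05 and values that overlapped over nearly the whole range. Klf4, a zinc finger factor, was read at 42.0, 133 and 361 CPM in the Tnmd-/- and 8.57, 246 and 2219 CPM in the WT cells, and WT cell 1 held 48.6% of its counts. Its log2 ratio was -0.61, and 0.93 without that cell. Tnfrsf12a, the receptor of the cytokine TWEAK, had 10 counts in Tnmd-/- cell 3 and a log2 ratio of 0.91.

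In the classes of RNA and protein synthesis, 3 of 18 RNA-binding proteins and 3 of 8 nucleolus and translation genes were at least 2-fold higher in the Tnmd-/- cells, against 0 and 1 lower. Of all 9768 genes 39.7% were at least 2-fold higher and 38.3% lower, so nothing is read from these counts. Beyond Hnrnpu and Npm1 the higher genes were Smg1, Ddx21, Ncl and Nop56, named after their values were seen, with log2 ratios of 1.67, 1.41, 1.38 and 1.45. That of Ddx21 was -0.09 without Tnmd-/- cell 20, and that of Nop56 was 0.61 without Tnmd-/- cell 9. The lower gene, Naca, which binds nascent chains at the ribosome, had -1.25, or -0.90 without WT cell 14. The class medians were 0.40 and 0.62, but with each cell weighted equally they were -0.03 and -0.05, and both were also negative in the 6 cells of fewest counts. Ddx5, Hnrnpa2b1, Hnrnpc, Sf3b1, Tpt1 and Rack1 were within 2-fold, at 0.65, 0.50, 0.76, 0.30, -0.03 and 0.62. Sf3b1 was read at 11.2, 506 and 836 CPM in the Tnmd-/- and 55.3, 562 and 1215 CPM in the WT cells.

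Chromatin and nuclear transport genes had a median of 0.82 over 6 genes, which was -0.31 as a difference of mean log2(CPM + 1). H3f3b was read at 20.2, 989 and 2454 CPM in the Tnmd-/- and 9.30, 950 and 2375 CPM in the WT cells, and Nap1l1, a histone chaperone, had a log2 ratio of -0.30. In endoplasmic reticulum, Golgi and folding, the chaperone Canx, the disulfide isomerase Pdia3, the retrieval receptor Kdelr2, the Golgi GTPase Arf4 and the prolyl isomerase Ppia had log2 ratios of 0.18, -0.11, -0.47, 0.09 and 0.74. Arf4 was -0.92 without Tnmd-/- cell 9, and Ppia was 1.39 without WT cell 5. Calr, a chaperone named after its values were seen, was the 1 of the 7 past 2-fold with all cells, with 1.70, or 2.70 without WT cell 2 and 1.11 without Tnmd-/- cell 9.

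Surface, annexin, cytoskeletal and degradation genes lay mostly below 0. The class median was -0.15 for surface and membrane proteins, -0.19 for annexins and S100 proteins, -0.35 for actin and microtubule proteins and -0.42 for ubiquitin, autophagy and lysosome. The tetraspanins Cd9, on the cell surface, and Cd63, in late endosomes, had -0.67 and -0.42. Cd9 was read at 81.7, 1909 and 4326 CPM in the Tnmd-/- and 3034, 3927 and 6585 CPM in the WT cells. B2m was at 0.23, Anxa5 at 0.15, Anxa1 at -0.08, Gsn at -0.44, the actin monomer binding profilin Pfn1 at -0.04 and the LIM domain protein Crip1 at 0.30. Without 1 cell, Gsn was 0.19 (WT cell 4), Pfn1 0.90 (WT cell 1) and Crip1 -0.48 (Tnmd-/- cell 1). In protein breakdown, Ubxn4, an adaptor at the endoplasmic reticulum, had -1.15, or -0.85 without WT cell 1, and Ctsl, a lysosomal protease, 0.95, with 46.3% of its counts in Tnmd-/- cell 20 and -1.29 without that cell. Chchd2, a mitochondrial protein, had 0.69. Of the 14 classes, the medians of non-coding loci (0.86), secreted and matrix proteins, annexins and S100 proteins, surface and membrane proteins, and ubiquitin, autophagy and lysosome kept their sign under each other scaling and in both sets of 6 cells split by counts, while those of the other 9 changed it in at least 1. Rn7sk was read at 5.34, 175 and 906 CPM in the Tnmd-/- and 13.7, 32.2 and 342 CPM in the WT cells, and its log2 ratio of 1.05 was 0.44 without Tnmd-/- cells 3 and 7, 0.53 without Tnmd-/- cell 3 and 2.06 without WT cell 2.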

How the data were processed

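Single cells were sequenced by Smart-Seq2, and the authors deposited whole-number counts of reads for each gene, not normalized. Per the paper's methods and the labels, reads were trimmed, kept only if they matched the mouse genome alone, aligned with STAR 2.5.1b to GRCm38 and counted in exons with featureCounts of Subread 2.0.0, uniquely mapped reads only. The strand setting is not given in the sources used here. The exon length deposited with the counts is in bases, and all 120 lengths equalled those computed from GENCODE M21.

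The 120 genes, the 20 functional lists and the 8 marker lists were chosen with earlier results of these data known, and the 14 classes after the genes were known. Counts were divided by the total of a cell, times 1000000 (CPM). Spread was the SD of log2(CPM + 1), and level was CPM per kb of exon as a geometric mean. Genotype ratios used summed counts, with 3 counts in place of 0, exact Clopper-Pearson intervals at 95%, and the 9768 genes with at least 20 counts as background. No test between genotypes, p-value or SE was computed, since no animal is named. Dixon's criterion was used only to list cells that stood apart. At 892713 to 13613080 counts per cell, the error of counting reads was small beside the distance between cells. The loss and amplification of molecules before sequencing are not part of that error, and their size is not known here.

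Genes were named by a fixed rule: the 8 highest levels, 6 smallest and 6 largest SDs, 5 highest and 5 lowest ratios, up to 3 per list by level, the genes nearest the limit, and Tnmd and Scx. Other genes named are said to be chosen after their values were seen, or are members of an enumerated set. Alternatives changed the minimum count, the scaling (edgeR 4.0.16 TMM, DESeq2 1.42.0 size factors, totals without mitochondrially encoded genes), the weights, the added constant and the cells. Scripts ran in Python 3.11.15 and were tested on simulated data. Promoter windows came from RefSeq tables of GRCm38.p6. The authors' differential expression was not used here. Single genes that the rule would name are not reported here in every case, though all 120 are counted.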

Additional observations from a re-analysis of the deposited data

Results flagged for a closer look

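Within the 6 cells of a genotype, 1 cell stood apart from the other 5 in 17 of 116 sets of values of the 58 named genes, by Dixon's criterion at 95% on log2(CPM + 1). By chance about 1 set in 20 meets this criterion, and genes of 1 cell share its depth, so the 17 are not independent. In 15 the cell was low and in 2 it was high.

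The high cells were Cst3 in WT cell 14 (72933 CPM, the others at most 11227) and Rn7sk in WT cell 2 (342 CPM, the others at most 46.4). In WT cell 2 the low values were Anxa8 (714 CPM, the others at least 2345), Anxa5 (5.60 CPM), B2m (4.35 CPM) and Ppia (2.90 CPM). In WT cell 14 they were Procr (6.64 CPM), Nfkbia (7.75 CPM) and H3f3b (9.30 CPM). In WT cell 1 it was Calm2 (3.51 CPM, the others at least 355).

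In Tnmd-/- cell 7 the low values were Fth1 (232 CPM, the others at least 4548), Hnrnpa2b1 (16.8 CPM), Ppia (15.7 CPM) and Sf3b1 (11.2 CPM). In Tnmd-/- cell 3 they were Cdkn1a (105 CPM, the others at least 3145), Sod1 (14.6 CPM) and Ppp1r15a (6.65 CPM). All 5 cells are among the 6 of fewest counts, and the parts of depth and of degradation were not tested.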

How the results depend on the processing

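The number of genes depended on the minimum: 211 genes passed at 5 counts in every cell, 71 at 20 and 35 at 50. A minimum that grew with the total of the cell, with 10 counts in the shallowest, left 60, all among the 120. Without Tnmd-/- cells 3 and 7, an alternative added after the data were seen, 207 genes passed. The median spread of 2.27 was 1.15 in the 6 cells of most counts. The 17 genes at least 2-fold higher in Tnmd-/- cells became 28 with TMM and 38 with DESeq2 factors at equal weights, and 28 in the 6 cells of most counts. The 12 at least 2-fold lower became 22 with cells weighted equally, 41 as differences of mean log2(CPM + 1), 24 with TMM, 27 with DESeq2 factors and 51 in the 6 cells of fewest counts.

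Leaving out 1 cell at a time gave 120 to 150 genes, a median share of 22.3% to 22.5%, a median spread of 2.04 to 2.36, 14 to 22 genes higher and 10 to 17 lower. Of the 58 named genes, 25 had a log2 ratio of other sign in the 6 cells of fewest counts, among them 5 past 2-fold with all cells: Klf6 (-1.33), Nfkbia (-0.94), Calm2 (-1.77), Ppp1r15a (-0.15) and Tspo (0.21). Klf6 was -0.89 as a difference of mean log2(CPM + 1), and Nfkbia ranged from -0.41 without Tnmd-/- cell 9 to 2.21 without WT cell 1. Of the 42 named genes within 2-fold, the sign differed between leave-one-out values in 26, and 11 reached 2-fold in at least 1. The cause was not tested. No paired analysis was possible because the results come from no test and the cell numbers that both genotypes share are only numbers of picked cells.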
